A study of Homo sapiens with 18 samples.

Results

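The DNA replication licensing genes described here are MCM2, MCM3, MCM4, MCM5, MCM6, MCM7, MCM10, CDC6, CDT1 and ORC1. They were taken by gene symbol from the 2 RNA-seq tables, and all 10 were found among the 28395 genes of each table. Open chromatin regions were taken where a merged ATAC-seq region lay within 5 kb of 1 of these genes, which gave 25 of 85549 regions. All libraries came from K562 cells, an established human chronic myelogenous leukemia line with erythroid features, and from 3 stably transfected derivatives that were selected as pools rather than as single clones. V-K562 is the control line, and the paper describes the K562 derivatives as stably transfected and selected. B-K562 expressed wtBASP1, a transcriptional cofactor that is lipidated at its N-terminus. G-K562 expressed BASP1-G2A, a mutant that cannot be N-myristoylated. Each line had 3 replicates for RNA-seq and 3 for ATAC-seq, 18 samples in all, and cells for ATAC-seq had been treated with DNase before harvest. B-K562 was set beside V-K562 for wtBASP1, and G-K562 beside V-K562 for the protein without its lipid anchor. Each line was a single transfected pool and its replicates came from that pool. The effect of BASP1 therefore cannot be told apart from other differences between the pools.

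Licensing prepares replication origins in G1. The origin recognition complex, of which ORC1 is the largest subunit, recruits CDC6 and CDT1, and together they load the ring-shaped MCM2 to MCM7 helicase onto DNA. MCM10 then takes part in activating the loaded helicase, while geminin, encoded by GMNN, binds CDT1 and prevents a further round of loading in the same cycle. Transcription of most of these genes is known to be driven by E2F factors and to peak around the transition from G1 to S phase. In bulk RNA a smaller share of cells near S phase and less RNA per cell cannot be told apart.

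Promoters were read from RefSeq (GRCh38.p14) as 250 bases before to 50 bases after the listed start, and 8 of the 10 genes matched. MCM4 and MCM5 were not among the promoters used. Searched on both strands, an E2F-type match (TTTCCCGC, TTTCGCGC, TTTGCCGC or TTTGGCGC) was present in 6 of the 8 genes and in 3.31% of all 35116 promoters. The NF-Y letters CCAAT were present in 6 of 8 (34.6% of all promoters) and the SP letters GGGCGG in 6 of 8 (45.0%). CACGTG, an E-box, was found in MCM2 and MCM7 (7.26%), TTTGAA, the letters of the cell cycle homology region, in none of the 8 (15.2%), and GNGTGGGNG, letters bound by EGR and WT1 proteins, only in ORC1 among the 8 (16.2%). Matches to different motifs overlapped in 2 places, an E2F and an NF-Y match in MCM7 and an SP and the GNGTGGGNG match in ORC1. The genes without an E2F-type match were MCM10 and ORC1. The 150 bases before the start are shown for MCM6 and MCM7, whose RNA rose in B-K562, for CDT1, whose RNA fell there, and for MCM10 and ORC1, which had the largest differences between G-K562 and B-K562. Capitals mark E2F-type matches, and in ORC1 the GNGTGGGNG match.
MCM6, chr2:135876444-135876593, minus strand, with 3 whole matches and the end of another: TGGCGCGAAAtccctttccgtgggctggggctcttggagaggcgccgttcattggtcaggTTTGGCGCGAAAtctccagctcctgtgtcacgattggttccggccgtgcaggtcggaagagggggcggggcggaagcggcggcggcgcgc
MCM7, chr7:100101398-100101547, minus strand: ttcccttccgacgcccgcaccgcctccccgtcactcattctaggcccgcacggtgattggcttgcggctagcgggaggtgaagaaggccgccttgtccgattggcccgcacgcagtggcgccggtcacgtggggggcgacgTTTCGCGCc
MCM10, chr10:13161408-13161557, plus strand: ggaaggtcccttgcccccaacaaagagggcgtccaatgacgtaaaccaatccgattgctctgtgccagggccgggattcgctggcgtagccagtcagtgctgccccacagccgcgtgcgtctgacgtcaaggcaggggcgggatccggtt
CDT1, chr16:88803639-88803788, plus strand: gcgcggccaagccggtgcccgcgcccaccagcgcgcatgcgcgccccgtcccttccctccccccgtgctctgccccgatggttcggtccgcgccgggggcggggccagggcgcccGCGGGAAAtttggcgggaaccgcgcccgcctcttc
ORC1, chr1:52404424-52404573, minus strand: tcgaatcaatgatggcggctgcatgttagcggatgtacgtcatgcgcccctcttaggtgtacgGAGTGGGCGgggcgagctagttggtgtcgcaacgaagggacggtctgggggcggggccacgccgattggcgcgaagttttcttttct
A match of letters describes these windows and does not show that a factor binds there.

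RNA-seq values were normalized read counts, that is, the read count of a gene divided by the library's size factor and rounded, and they summed to between 32074895 and 33229588 per library. BASP1 ranged between 5 and 7 in V-K562, whereas B-K562 had 6294 to 6965 and G-K562 had 8124 to 12538. The 11 erythroid markers of K562 were all detected, and their sum ranged from 130058 to 146068 in V-K562, from 224522 to 228497 in B-K562 and from 70447 to 76291 in G-K562. The sum thus moved with the lines in the same direction as most of the genes described here. In B-K562 the mean of each of the 11 markers was above that of V-K562, and in G-K562 10 were below it, while TFRC, the transferrin receptor, averaged 21368 in V-K562, 39824 in B-K562 and 31673 in G-K562. The part of these markers in the results was not tested. The summed T and B cell markers were at most 743 and the 3 monocyte markers at most 27, and MS4A1 was at 0 in every library. Of the 3 epithelial markers EPCAM ranged from 1129 to 1731, while CDH1 was at most 40 and KRT5 at most 145. The 3 fibroblast markers summed to at most 1424, with COL1A1 at up to 1297, COL3A1 at up to 585 and PDGFRA at up to 2.03.

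In B-K562 the RNA of 8 of the 10 genes was higher than in V-K562, that of CDT1 was lower and that of ORC1 did not pass the test. In G-K562 no gene was higher, 8 were lower, and MCM5 and MCM7 did not pass. A gene was called at an adjusted p of at most 0.05 in limma on log2(value + 1), and 75.8% of the 14958 genes tested in B-K562 were called (38.6% higher, 37.2% lower). In G-K562 66.9% of 15271 genes were called (33.5% higher, 33.3% lower). Most genes of these lines therefore differed from V-K562, and the number called among the 10 is read against that. The median log2 fold change of the 10 was 0.45 in B-K562 and -0.22 in G-K562, while over all genes tested it was 0.01 and 0.00. All changes of the 10 in B-K562 were below 2-fold, a size that 20.6% of all genes passed, and in G-K562 ORC1 alone passed 2-fold. The values of both lines did not overlap for 9 of the 10 genes in B-K562 against V-K562 (77.8% of all genes tested) and for 8 in G-K562 against V-K562 (70.2%). The V-K562 libraries are shared by these comparisons, which are therefore not independent.

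**Figure D1:**
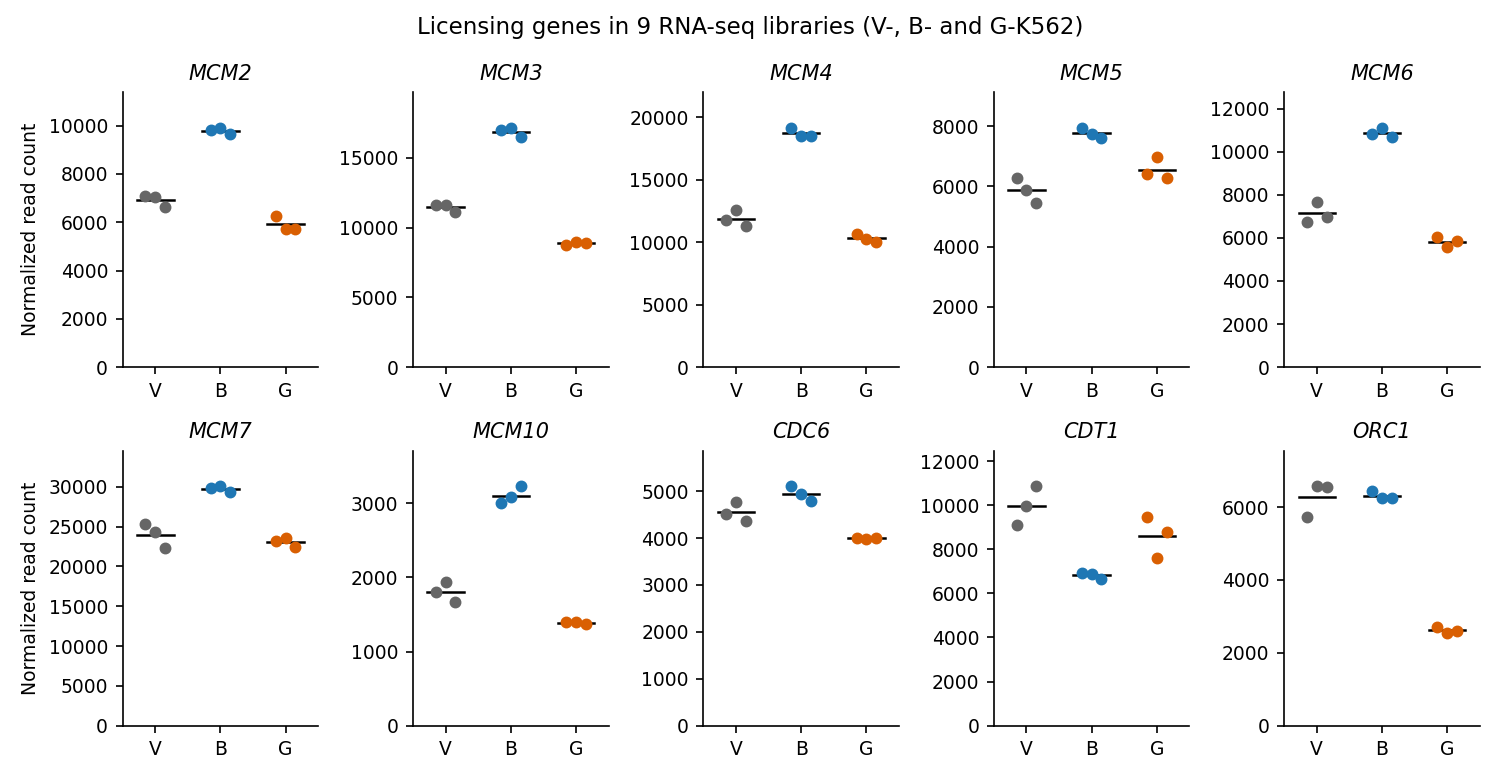
Normalized read count of each licensing gene (vertical axes, starting at 0) in the 3 libraries of each line, with bars at the means and B-K562 values brought to the scale of the other table. The MCM genes are highest in B-K562, CDT1 is lowest there, and ORC1 is low only in G-K562.

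MCM2 to MCM7 are the 6 subunits of the replicative helicase, and all 6 were higher in B-K562. MCM4, a subunit of the catalytic core of the ring, was at 11602, 12427 and 11067 in V-K562 and at 18830, 18170 and 18167 in B-K562. Every B-K562 library lay above every V-K562 library, a 1.57-fold difference (log2 0.65 ± 0.05 SE, limma adjusted p = 5.4e-08). MCM6, which lies beside MCM2 and MCM4 in the ring, rose from 6645, 7571 and 6826 to 10648, 10918 and 10517, a 1.52-fold difference (adjusted p = 1.56e-07). MCM3 rose from 11466, 11451 and 10922 to 16733, 16862 and 16200 (log2 0.56, adjusted p = 7.76e-08). MCM2, whose N-terminal part also binds histones, rose from 6983, 6957 and 6501 to 9642, 9743 and 9506 (log2 0.50, adjusted p = 2.68e-07). The 6 subunits did not rise to the same degree. MCM5, which closes the ring together with MCM2, went from 6190, 5793 and 5353 to 7809, 7599 and 7478 (log2 0.40, adjusted p = 1.25e-05). MCM7, the most abundant of the 10, went from 24938, 23917 and 21932 to 29373, 29553 and 28873, the smallest rise of the 6 at log2 0.31 ± 0.05 (adjusted p = 0.000126).

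In G-K562 4 of the 6 subunits were lower than in V-K562. MCM3 fell the furthest, from 11642, 11626 and 11144 to 8730, 8976 and 8925, to 77.4% of V-K562 (log2 -0.37 ± 0.05, limma adjusted p = 5.92e-05). MCM6 fell from 6746, 7687 and 6964 to 6026, 5580 and 5873 (log2 -0.29, adjusted p = 0.00157). MCM2 fell from 7090, 7063 and 6633 to 6273, 5730 and 5736 (log2 -0.23, adjusted p = 0.00454). MCM4 was at 11779, 12617 and 11292 in V-K562 and at 10644, 10271 and 9982 in G-K562 (log2 -0.21, adjusted p = 0.00856), and this call was lost without V-K562 replicate 2 (log2 -0.16, adjusted p = 0.0503). None of these 4 genes overlapped between the lines. MCM7 did overlap, with 25320, 24284 and 22377 in V-K562 and 23249, 23530 and 22432 in G-K562, and its interval ran from -0.19 to 0.08 on the log2 scale (adjusted p = 0.445). MCM5 was at 6285, 5882 and 5461 in V-K562 and at 6414, 6963 and 6291 in G-K562, higher in every library but just short of a call (log2 0.16, 95% interval 0.01 to 0.30, adjusted p = 0.0509). Without V-K562 replicate 1 MCM5 was called higher in G-K562 (log2 0.21, adjusted p = 0.0179).

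MCM10 joins the loaded helicase later and helps to turn it into an active replication fork. It had the largest rise of the 10 genes in B-K562, from 1780, 1913 and 1633 to 2951, 3028 and 3174, or 1.72-fold (log2 0.78 ± 0.06, limma adjusted p = 4.62e-08). In G-K562 it fell from 1807, 1942 and 1666 to 1396, 1401 and 1368, to 76.9% of V-K562 (adjusted p = 0.000433). The values of both lines lay clear of those of V-K562.

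The loaders CDC6 and CDT1 moved apart in B-K562. CDC6, the ATPase that joins ORC at the origin, was at 4447, 4701 and 4274 in V-K562 and at 5016, 4849 and 4718 in B-K562, only 1.09-fold higher (log2 0.12 ± 0.05, limma adjusted p = 0.039). That call was lost when V-K562 replicate 3 or any 1 of the B-K562 libraries was left out, with adjusted p between 0.0506 and 0.152. It was also lost without the filter on low values (adjusted p = 0.0596), without the variance trend (adjusted p = 0.0987) and under median scaling (log2 0.076, adjusted p = 0.151), and under quantile normalization the difference turned to -0.019. CDT1, which brings the helicase to ORC and CDC6, was at 8978, 9816 and 10636 in V-K562 and at 6800, 6778 and 6548 in B-K562. It was lower in all 3 libraries, at 68.4% of V-K562 (log2 -0.54 ± 0.06, adjusted p = 1.19e-06), and was the only 1 of the 10 genes called lower in B-K562. In G-K562 CDC6 fell from 4515, 4773 and 4361 to 3995, 3990 and 3999 (log2 -0.19, adjusted p = 0.0101), a call lost without V-K562 replicate 2 (adjusted p = 0.0558). CDT1 in G-K562 was at 9448, 7602 and 8806 against 9115, 9966 and 10852, so the lines overlapped, and its call (log2 -0.21, adjusted p = 0.0445) was lost when V-K562 replicate 2 or 3 or G-K562 replicate 2 or 3 was left out, with adjusted p between 0.0657 and 0.172, and also without the filter on low values (adjusted p = 0.0957) or the variance trend (adjusted p = 0.132).

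ORC1 is the subunit of the origin recognition complex whose level changes most through the cell cycle. It did not differ detectably in B-K562, with 5632, 6469 and 6419 in V-K562 against 6333, 6157 and 6139 (95% interval of the log2 difference -0.11 to 0.13, limma adjusted p = 0.861). Under quantile normalization it was called lower in B-K562 (log2 -0.15, adjusted p = 0.0221). In G-K562 it fell from 5718, 6568 and 6549 to 2721, 2530 and 2595. Every G-K562 library was below every V-K562 library, at 41.7% of the V-K562 mean (log2 -1.26 ± 0.07, adjusted p = 2.57e-08). ORC1 was the only 1 of the 10 with a change of at least 2-fold from V-K562, among 10.3% of all genes that were lower by that much in G-K562.

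**Figure D2:**
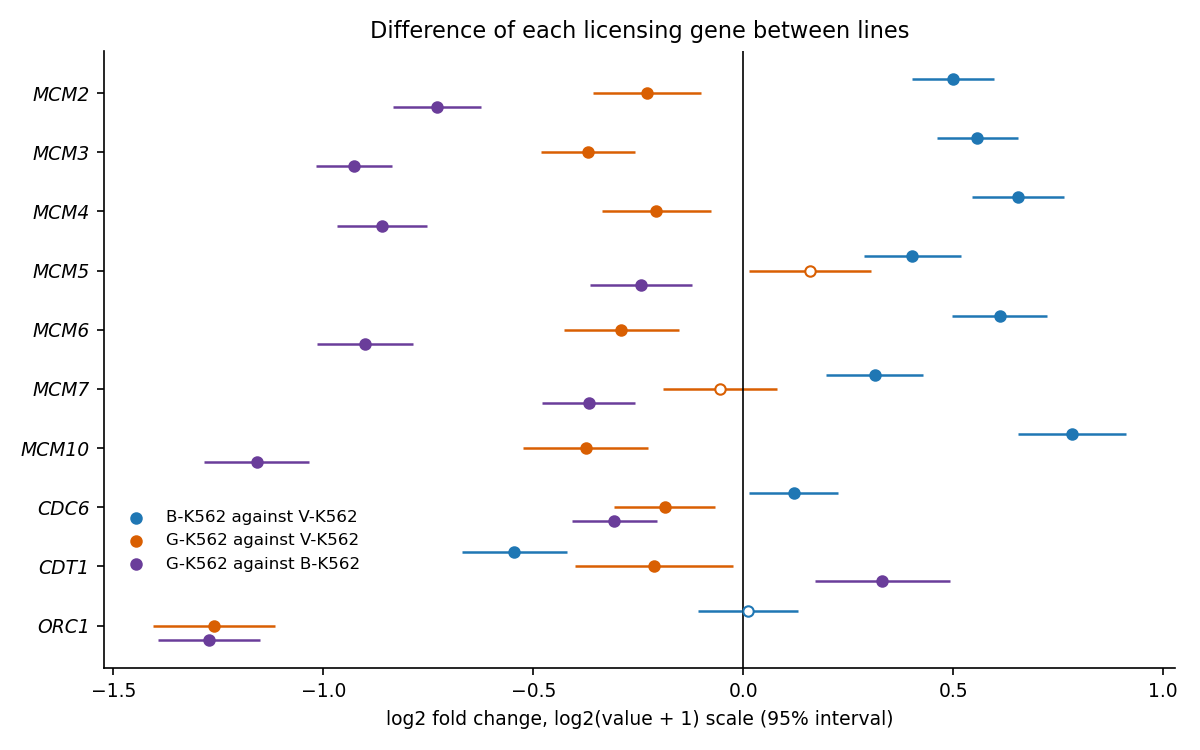
Log2 fold change of each licensing gene with its 95% interval (horizontal axis) in the 3 comparisons of lines, where filled points were called and open points were not. MCM2 to MCM7 and MCM10 lie right of 0 in B-K562 against V-K562, and ORC1 lies at -1.26 in G-K562 and near 0 in B-K562.

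Set against each other in 1 fit of all 9 libraries, G-K562 was lower than B-K562 in 9 of the 10 genes and higher in CDT1. In that fit 78.5% of 15521 genes were called (40.5% lower, 38.1% higher). The median of the 10 was -0.80 on the log2 scale, and over all genes tested it was -0.02. ORC1 in G-K562 was at 41.4% of B-K562 (log2 -1.27 ± 0.06, limma adjusted p = 6.4e-11) and MCM10 at 44.7% (log2 -1.16 ± 0.06, adjusted p = 2.28e-10), and these were the 2 genes past 2-fold, where 12.5% of all genes were lower by as much. MCM3 (52.6%), MCM6 (53.6%), MCM4 (55.1%) and MCM2 (60.4%) followed. MCM7 at 77.5%, CDC6 at 80.8% and MCM5 at 84.5% of B-K562 differed least among the genes that were lower. CDT1 was 1.26-fold higher in G-K562 (log2 0.33 ± 0.08, adjusted p = 0.00103). The libraries of G-K562 and B-K562 did not overlap for any of the 10 genes, as for 81.0% of all genes tested.

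Divided by the length of the merged exons, the levels of the 10 genes within a line can be ordered. In V-K562 MCM7 led with 6568 ± 409 (SD, n = 3) per kb and MCM10 was last with 395 ± 30. CDT1 with 3730 ± 325 per kb was second there and its libraries overlapped those of MCM3, at 3576 ± 88.2. MCM2, ORC1, MCM6 and MCM5 lay between 1841 and 1976 per kb in V-K562, and neighbours in that order overlapped. In B-K562 CDT1 came sixth, at 2550 ± 53.1 per kb, below MCM3, MCM4, MCM6 and MCM2. ORC1, sixth in V-K562 at 1946 ± 150 per kb, was ninth in G-K562 at 811 ± 30.1. The level of CDT1 over that of its inhibitor GMNN, both per kb, was 3.01, 3.28 and 3.85 in V-K562, 1.52, 1.52 and 1.55 in B-K562 and 4.18, 2.98 and 3.73 in G-K562. The ratio was lower in every B-K562 library than in any V-K562 library (exact permutation p = 0.1, two-sided, the smallest that 3 libraries against 3 allow), while G-K562 overlapped V-K562 (exact permutation p = 0.8). These are ratios of RNA and say nothing of the proteins.

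Over the 9 libraries, 6 of the 10 genes followed the mean of the 10 closely (Pearson r of 0.97 to 0.99 for MCM2, MCM3, MCM4, MCM6, MCM10 and CDC6). MCM7 had an r of 0.91, ORC1 of 0.85, MCM5 of 0.59 and CDT1 of -0.57. Each gene is itself 1 of the 10 averaged, and the 9 points are 3 lines rather than 9 independent conditions. Of 10317 other genes that reached 100 in every library, the 5 most like that mean were DDX21, LRRC47, SRPK1, SLC9B2 and FAM98A, with r between 0.997 and 0.998. DDX21, an RNA helicase of ribosome production, averaged 21533 in V-K562, 30073 in B-K562 and 16102 in G-K562.

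The other genes of replication were taken as lists. Over all genes tested 38.6% were higher and 37.2% lower in B-K562, and 33.5% higher and 33.3% lower in G-K562. In G-K562 against B-K562 38.1% were higher and 40.5% lower. The list counts are read against these shares, and several in G-K562 against V-K562 lay near or below them. Among partners in origin recognition and loading, 9 of 11 tested were higher in B-K562 and none lower, with a median log2 fold change of 0.33. ORC5, another subunit of the origin recognition complex, rose from 1004 ± 100.1 to 2136 ± 21.1 (n = 3 each, log2 1.09, limma adjusted p = 5.69e-09). MCM9, a helicase of homologous recombination rather than of licensing, went from 396 ± 49.1 to 837 ± 8.39 (log2 1.08, adjusted p = 5.29e-08). In G-K562 3 of these 11 were higher, among them MCM9 (log2 0.72, adjusted p = 7.41e-05). Another 5 were lower, among them ORC4 (log2 -0.76, adjusted p = 3.98e-06) and ORC3 (log2 -0.59, adjusted p = 1.09e-05), both ORC subunits. Against B-K562, 10 of the 11 were lower in G-K562 and 1 was higher.

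Of 10 genes that inhibit licensing or turn over CDT1, 7 were higher and 2 lower in B-K562. SKP2, the substrate receptor of a ubiquitin ligase that acts on CDT1 and on the CDK inhibitor p27, rose from 2150 ± 87.3 to 6403 ± 103 (log2 1.57, limma adjusted p = 9.15e-12). In G-K562 SKP2 fell to 1218 ± 43.6 against 2186 ± 85.5 on that table's scale (log2 -0.84, adjusted p = 3.12e-07). Between G-K562 and B-K562 it differed by -2.42 on the log2 scale (adjusted p = 4.22e-14). GMNN went from 2708 ± 122 to 4075 ± 136 in B-K562 (log2 0.59, adjusted p = 1.3e-07) and from 2753 ± 116 to 2224 ± 139 in G-K562 (log2 -0.31, adjusted p = 0.00119). CCNF, encoding cyclin F, rose in B-K562 (log2 0.70, adjusted p = 3.65e-07). In G-K562 3 of the 10 were higher and 6 lower, and DDB1, the adaptor of the CUL4 ligase that degrades CDT1 in S phase, was among the lower ones (log2 -0.53, adjusted p = 1.28e-05).

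Helicase activation and origin firing showed 14 of 17 genes higher and 2 lower in B-K562 (median log2 0.58). GINS3 (log2 1.14, limma adjusted p = 6.19e-09) and GINS2 (log2 0.77, adjusted p = 2.59e-08) encode subunits of the GINS complex, which binds MCM2 to MCM7 in the active helicase. TIPIN, a fork protection factor, rose by 0.97 (adjusted p = 1.63e-07). In G-K562 5 of the 17 were higher, 4 were lower and 8 did not pass, with GINS4 higher (log2 0.50, adjusted p = 5.34e-05) and TICRR, which brings CDC45 to origins, lower (log2 -0.58, adjusted p = 0.000102). None was higher than in B-K562 and 12 were lower, DBF4, the activator of the CDC7 kinase, by -1.12 (adjusted p = 4.22e-10).

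The polymerases, the clamp, its loader and RPA had 13 of 24 genes higher and 3 lower in B-K562. POLE3 and POLE4, which form a histone-fold pair in DNA polymerase epsilon, rose by 0.91 and 0.93 on the log2 scale. POLD4, the smallest subunit of DNA polymerase delta, fell from 1754 ± 63.6 to 714 ± 19.7 in B-K562 (log2 -1.29, limma adjusted p = 1.92e-10) and rose from 1784 ± 65.8 to 2647 ± 74.1 in G-K562 (log2 0.57, adjusted p = 4.79e-06). In G-K562 6 of the 24 were higher and 7 lower, and RPA2, which coats single-stranded DNA, was lower (log2 -0.66, adjusted p = 1.03e-06). Against B-K562, 18 of the 24 were lower and 2 higher.

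Among E2F factors and pocket proteins, 10 of 13 were higher and 1 lower in B-K562, and 8 were higher and 2 lower in G-K562. E2F4, a mostly repressive E2F, rose in B-K562 (log2 1.10, limma adjusted p = 3.5e-10), and RBL2, the pocket protein p130 that works with it in resting cells, fell in B-K562 (log2 -0.66, adjusted p = 2.9e-08) and rose in G-K562 (log2 0.46, adjusted p = 3.1e-05). E2F3, an activator, rose in G-K562 from 2607 ± 172 to 4431 ± 120 (log2 0.77, adjusted p = 7.62e-07). In G-K562 the 8 higher were E2F1, E2F3, E2F4, E2F6, E2F7, E2F8, RB1 and RBL2. The 2 lower were E2F2 and TFDP1 (log2 -0.23 each). The list mixes activators such as E2F3 with the mostly repressive E2F4 and with pocket proteins. Its count therefore has no single direction to set beside the licensing genes, and no difference between these lists was tested.

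The G1/S cyclins and kinases had 8 of 10 genes higher and 2 lower in B-K562. CDC25A, the phosphatase that activates CDK2, rose from 2022 ± 78.9 to 4080 ± 180 there (log2 1.01, limma adjusted p = 8.63e-10) and fell in G-K562 (log2 -0.61, adjusted p = 4.55e-06). CCND1, encoding cyclin D1, rose in G-K562 (log2 1.08, adjusted p = 2.06e-05). In G-K562 5 of the 10 were higher and 4 lower. Of 7 genes of nucleotide supply, 5 were higher and 1 lower in B-K562, with CAD, the first enzyme of pyrimidine synthesis, at log2 0.86 (adjusted p = 2.13e-08). In G-K562 2 were higher and 3 lower. The G2/M genes, which peak after replication, were split in B-K562, 9 of 20 higher and 6 lower with a median of 0.055, while in G-K562 1 was higher and 13 were lower (median -0.33). BUB1 and BUB1B of the spindle checkpoint fell in G-K562 by 0.95 each on the log2 scale (adjusted p = 1.91e-07 and 9.4e-08), and KIF20A, a kinesin of cytokinesis, by 1.05 (adjusted p = 3.53e-07).

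**Figure D3:**
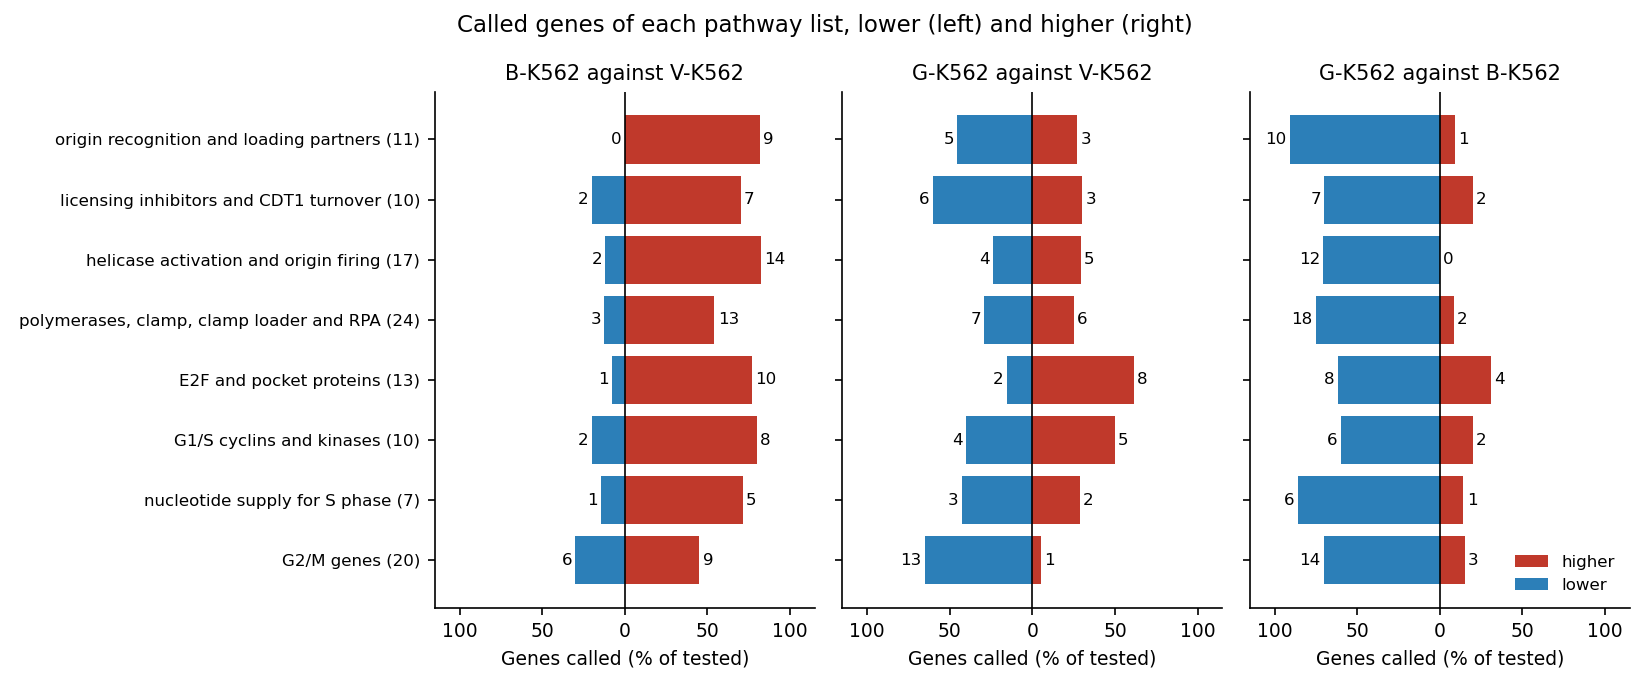
Share of the tested genes of each pathway list (number tested in brackets) called lower (bars to the left) and higher (bars to the right) in each comparison, with the number of genes at the bar ends. In B-K562 against V-K562 14 of 17 genes of helicase activation were higher, beside 38.6% of all genes tested. In G-K562 against V-K562 13 of 20 G2/M genes were lower, beside 33.3% of all genes tested.

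Of the 10 genes, 3 start within 1 kb of a gene on the opposite strand. PRKDC, encoding the catalytic subunit of the DNA-dependent protein kinase, starts 20 bp from MCM4. It rose with MCM4 in B-K562, from 13177 ± 1202 to 20475 ± 657 (log2 0.64, limma adjusted p = 4.26e-07, beside 0.65 for MCM4), and was 0.10 in G-K562 (adjusted p = 0.347). PRPF38A, a splicing factor gene, starts 76 bp from ORC1. In G-K562 it fell from 4734 ± 198 to 2669 ± 148, to log2 -0.83 (adjusted p = 3.68e-07), beside -1.26 for ORC1, and in B-K562 it rose by 0.28 (adjusted p = 8.31e-05) where ORC1 did not differ detectably. AP4M1, of the AP-4 vesicle adaptor, overlaps the start of MCM7 on the other strand, 528 bp apart, and fell in B-K562 from 660 ± 16.3 to 525 ± 8.54 (log2 -0.33, adjusted p = 0.000275) where MCM7 rose. The RNA library was strand-specific, but the strand setting of the count is not given, so reads of MCM7 and AP4M1 may not be fully separated. MCM7 also holds the microRNA genes MIR106B, MIR93 and MIR25 on its own strand, each with values of at most 71.

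**Figure D4:**
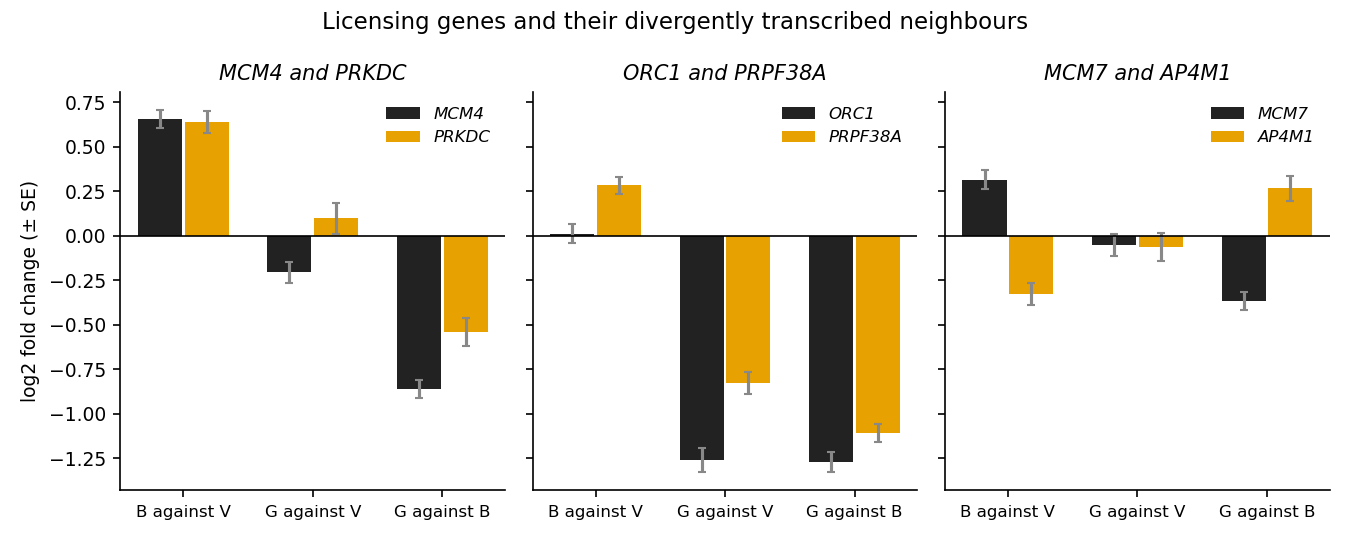
Log2 fold change ± SE (vertical axis) of MCM4, ORC1 and MCM7 beside the gene that starts within 1 kb on the opposite strand, in the 3 comparisons. ORC1 and PRPF38A both lie below 0 in G-K562, at -1.26 and -0.83, and MCM7 and AP4M1 lie on opposite sides of 0 in B-K562, at 0.31 and -0.33.

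Genes further along the chromosome were also counted. Of 47 tested genes within 5 Mb of ORC1, 25 were lower and 9 higher in G-K562, with a median of -0.34 on the log2 scale. Around CDT1 44 of 76 genes were higher and 12 lower in B-K562 (median 0.33). In G-K562 43 of 80 were higher there and 11 lower (median 0.33). Both were opposite in direction to CDT1 itself. Around MCM10 23 of 43 were lower and 8 higher in G-K562 (median -0.26). Around MCM6 15 of 24 were lower and 5 higher in B-K562 (median -0.34), where MCM6 rose. Around MCM5 57 of 117 were lower and 37 higher in B-K562 (median -0.29), where MCM5 rose. The other windows against V-K562 had medians between -0.23 and 0.15. Over all genes tested 38.6% were higher and 37.2% lower in B-K562, and 33.5% higher and 33.3% lower in G-K562. Copy number of these segments was not measured.

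ATAC-seq reads mark open chromatin, and each region's value is the pileup, the number of tags at the peak summit. Pileups are printed before the scaling between libraries, whereas log2 differences and tests are after it. For G-K562 against V-K562 the scaling divided V-K562 values by 0.87 to 0.90 and G-K562 values by 1.09 to 1.16. Of the 25 regions, 12 had their summit within 1 kb of the start site of a licensing gene. The 10 genes each had at least 1 such region. In B-K562 2 of the 15 regions tested had opened and none had closed, both at start sites, and 25.2% of 52204 regions were called in all (8.57% opened, 16.6% closed). In G-K562 7 of the 18 tested had opened, 5 of them at start sites, and none had closed, with 41.9% of 54213 regions called (15.9% opened, 26.0% closed). The 7 and the 5 include the start region of CDT1, which had no called peak in V-K562. Testing required a peak in at least 3 libraries, here those of G-K562, and V-K562 was set to a floor of 17. Its call therefore rests on the filter and the floor, and it is also in the G-K562 start-region median below. The counts of both lines turned on the scaling. With equal tags only and no further scaling, 11 regions were called opened in B-K562 and 12 in G-K562, and in B-K562 the count was 4 on mean pileup and 5 among regions with a peak in every library. Between G-K562 and B-K562, 2 of 19 regions tested had opened and 1 had closed, where 37.4% of 51238 were called (16.8% opened, 20.6% closed). Of the 2 opened, 1 at MCM5 (chr22:35447767-35448257) had no called peak in B-K562, and all its B-K562 values were set to the floor. It was tested only through its G-K562 peaks, so that call also rests on the filter and the floor. At start sites in general 17.9% of 11819 regions opened in B-K562 and 36.6% of 12181 in G-K562. The median log2 difference at the start regions of the licensing genes was 0.28 in B-K562 and 0.41 in G-K562, beside 0.22 and 0.30 over the start regions of all genes. Start regions of these genes therefore moved in the same direction as start regions at large.

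The start region of MCM7 (chr7:100101244-100102101) opened in both lines. Its pileups were 157, 213 and 191 in V-K562, 271, 280 and 291 in B-K562 and 361, 391 and 365 in G-K562, with log2 differences of 0.44 ± 0.11 (limma adjusted p = 0.022) and 0.65 ± 0.11 (adjusted p = 0.003). The start region of MCM2 (chr3:127598050-127598663) had pileups of 109, 114 and 109 in V-K562, 163, 167 and 137 in B-K562 and 176, 230 and 214 in G-K562. It was called in B-K562 (log2 0.33, adjusted p = 0.046) and in G-K562 (log2 0.54, adjusted p = 0.01). Both B-K562 calls were lost when regions were scaled within bins of GC content (adjusted p = 0.135 for MCM7 and 0.621 for MCM2), where the start region of ORC1 was the 1 region called instead. Neither was called without V-K562 replicate 3 or without B-K562 replicate 2, and leaving out any other library lost 1 of them. With the replicate block MCM2 was not called (adjusted p = 0.0544). The start region of MCM3 (chr6:52284512-52285231) opened in G-K562, with 233, 230 and 236 in V-K562 and 421, 353 and 441 in G-K562 (log2 0.44, adjusted p = 0.004). That of MCM6 (chr2:135876184-135876754) went from 101, 105 and 124 to 189, 214 and 189 (log2 0.49, adjusted p = 0.013). In G-K562 the start regions of MCM2, MCM3 and MCM6 had thus opened while their RNA was lower. With scaling in GC bins the calls of MCM2 and MCM6 were lost (log2 0.19 and 0.29, adjusted p = 0.188 and 0.0812).

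At ORC1 the RNA and the start region did not move together. The pileups at its start (chr1:52403644-52405057, shared with PRPF38A) were 145, 138 and 143 in V-K562, 192, 207 and 178 in B-K562 and 235, 174 and 242 in G-K562. Before scaling no library of G-K562 was below V-K562, although ORC1 RNA was at 41.7%. After scaling the libraries of these lines overlapped, and the difference did not pass the test (log2 0.24 ± 0.12, limma adjusted p = 0.143). It was called opened without G-K562 replicate 2 (log2 0.39, adjusted p = 0.0214), in GC bins (log2 0.40, adjusted p = 0.0324) and with equal tags only (log2 0.59, adjusted p = 0.00804). In B-K562 it just missed a call (log2 0.28, adjusted p = 0.0556) and was called in GC bins (log2 0.39, adjusted p = 0.0257). At CDT1 no peak was called at the start (chr16:88803564-88803983) in any V-K562 library or in B-K562 replicate 1. Peaks of 57 and 52 were called in B-K562 replicates 2 and 3 and of 61, 69 and 74 in G-K562. The region counted as opened in G-K562 with V-K562 set to a floor of 17, so no fold is given. Tags may still be present where a library had no called peak, since the lowest pileup of any called peak was 10. This region has a GC content of 77.4%, the highest of the 12, where the median over all start regions tested was between 64.5% and 64.7%. The start region of MCM10 (chr10:13161141-13161716) was the only one of the 12 called between G-K562 and B-K562, with pileups of 318, 224 and 284 in B-K562 and 246, 210 and 249 in G-K562 (log2 -0.44 ± 0.13, adjusted p = 0.031, against 10.2% of all start regions that closed). It was lost without any 1 of B-K562 replicates 1 and 3 and G-K562 replicates 2 and 3 (adjusted p between 0.0598 and 0.084), on mean pileup (adjusted p = 0.0534) and with equal tags only (log2 -0.22, adjusted p = 0.241). The MCM4, MCM5 and CDC6 start regions were called in neither line against V-K562. CDC6 had the highest V-K562 pileups of these, 203, 244 and 228, and differed by 0.15 in B-K562 and 0.09 in G-K562 on the log2 scale (adjusted p = 0.226 and 0.403).

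**Figure D5:**
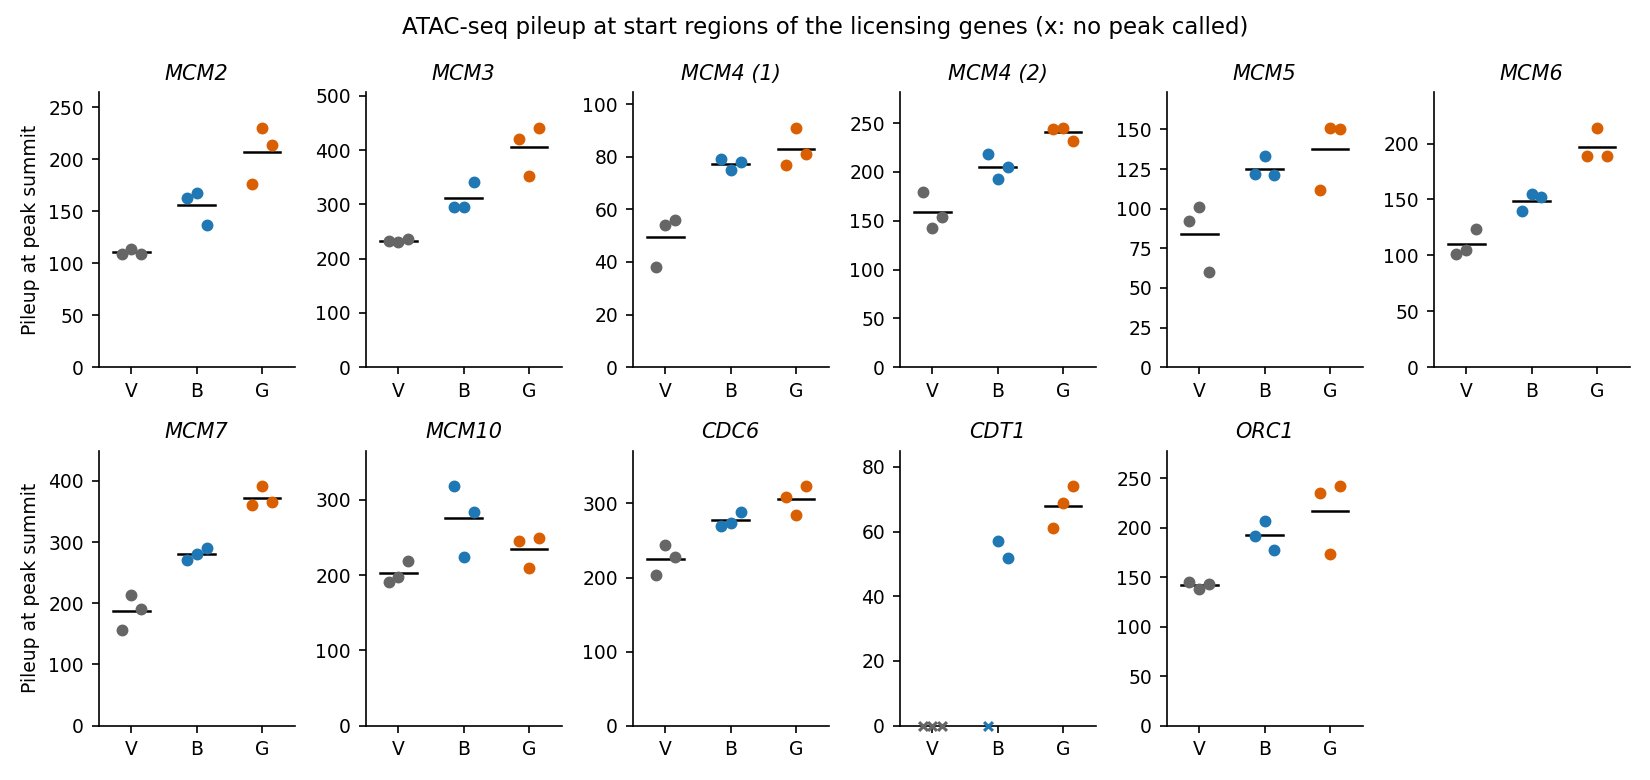
ATAC-seq pileup at the peak summit (vertical axes, starting at 0) in the start regions of the licensing genes in each library of the 3 lines, with bars at the means and a cross where no peak was called. MCM7 goes from 157 to 213 in V-K562 to 361 to 391 in G-K562, and CDT1 has no called peak in V-K562. Pileups are shown before scaling.

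Of the 13 regions away from the table start sites of the licensing genes, 5 were tested in every comparison and 6 in none, because too few libraries had a peak there. The second region of MCM7 lay 1204 bp downstream of the start in the table, at another annotated start of the gene. Its pileups were 91, 80 and 121 in V-K562, 144, 114 and 150 in B-K562 and 186, 212 and 235 in G-K562. It opened in G-K562 against V-K562 (log2 0.77, limma adjusted p = 0.008) and against B-K562 (log2 0.41, adjusted p = 0.041). Downstream of CDT1 a region with pileups of 140, 127 and 131 in V-K562 and 250, 242 and 238 in G-K562 also opened (log2 0.52, adjusted p = 0.003). Its summit lay within 1 kb of the start of another gene, APRT.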

How the data were processed

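RNA-seq and ATAC-seq libraries of the 3 K562 lines were analysed, with 3 replicates per line and assay. Per the labels, processing used Subread, DESeq2 and MACS2 on GRCh38. The authors mapped RNA-seq reads with STAR, dropped duplicate and multiply mapped reads and those with more than 2 mismatches, counted the rest per gene and divided the counts by a size factor. The deposited RNA-seq values are these normalized counts rounded to whole numbers, treated here as a score and not as raw counts, in a table for each BASP1 line with the V-K562 libraries in both. The authors' log2 fold change, error and p-value columns and their group means were not used. For ATAC-seq the authors brought all libraries to an equal tag number and called peaks in each one, and the deposited signal is the pileup at each summit. Depth behind a normalized value is only approximate. The study describes its replicates as biological triplicates, independent experiments for RNA-seq and separately prepared samples for ATAC-seq, and p-values measure the spread between these libraries.

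Values were tested as log2(value + 1) in limma 3.58.1 under R 4.3.3, where the prior variance followed the mean level, and p-values were adjusted by Benjamini-Hochberg across the genes with at least 10 in at least 3 libraries. A count model was not used because raw counts were not analysed here. Fold changes of the text are differences on that log2 scale. For G-K562 against B-K562 B-K562 was brought to the other scale with 1.017, the factor between the tables in the shared V-K562 libraries. ATAC-seq intervals were merged where they overlapped, scaled by a trimmed mean, set to at least 17, the 5th percentile, and tested where at least 3 libraries had a peak. The fits were tested on simulated data with few changed genes or regions, equally up and down, and no scaling difference between libraries. That test does not show how the fits act where most genes differ. Gene positions are those of the tables and features those of GENCODE 44.

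The members and the lists were chosen with earlier results of these data known. All 10 members are named, with the gene on the opposite strand that starts within 1 kb, up to 3 of the largest called changes of each list, and the 5 genes most like the members. GMNN in G-K562 was added to set it beside CDT1, and the called E2F and pocket protein genes in G-K562 to show what that list mixes. Alternatives were other scalings, filters, pseudocounts and floors, a replicate block, and each library left out.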

Additional observations from a re-analysis of the deposited data

How the results depend on the processing

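The alternatives to the scaling, filter, pseudocount, trend and libraries left most values as they were: of the alternative values for single genes and start regions, 581 kept their direction and side of the threshold, 35 were no longer called, 27 were newly called and 7 changed sign. The sign changed for CDC6 in B-K562 under quantile normalization (-0.019 on the log2 scale), for ORC1 in B-K562 under median scaling (-0.033), quantile normalization (-0.15) and with single libraries left out (range -0.054 to 0.046), for the second MCM4 start region in G-K562 under GC bins (-0.051), and for the MCM10 start region in G-K562 with equal tags only (0.21). The cause was not tested.

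For RNA, asking for a 2-fold change left 0 higher and 0 lower genes in B-K562, 1 lower gene in G-K562, and 0 higher and 2 lower genes in G-K562 against B-K562. Quantile normalization gave 2 lower genes in B-K562. In G-K562 the stricter filter and a pseudocount of 10 each gave 1 gene higher, MCM5, and leaving out single libraries gave 0 to 1 higher and 5 to 8 lower, with 5 without V-K562 replicate 2. For ATAC-seq the calls in B-K562 came to 1 in GC bins, at ORC1, 11 with equal tags only, 4 on mean pileup, 5 where every library had a peak, 1 with the replicate block, 0 at 2-fold and 0 to 1 with single libraries left out. In G-K562 they came to 12 with equal tags only and 1 at 2-fold. That 1 region was the start region of CDT1, which had no called peak in any V-K562 library. Its fold rests on the floor set for V-K562 and is not a measured size. In G-K562 against B-K562 the calls came to 8 with equal tags only, 0 at 2-fold and 0 to 4 with single libraries left out. With equal tags only, the median over all regions moved from -0.10 to 0.19 in G-K562 and from -0.06 to 0.06 in B-K562. Scaling within GC bins left 4 regions opened and 1, at MCM10, closed in G-K562. Same-numbered libraries had deviations that correlated between -0.10 and 0.15. Libraries with different numbers were not compared in this way, so whether the numbers pair the libraries stays undecided. With a replicate block the RNA calls stayed at 8 higher and 1 lower in B-K562 and 8 lower in G-K562. A gene body extended by 10 kb held more regions, 33 in all.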
